A study of Homo sapiens with 7 samples.

Results

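The 34 genes described here are known targets of p53 that carry, or are held to carry, a p53 response element, and the question was whether they were higher or lower when TP63 was silenced. They are a list of gene names out of 56236 genes in the files, drawn up with earlier results of these data known, and all 34 were measured in every library. Expression was measured by RNA-Seq in 2 esophageal squamous cell carcinoma (ESCC) lines, TE5 and KYSE140, after a non-targeting scramble short hairpin RNA (shRNA) or an shRNA against TP63 or SOX2, and in TE5 cells also after an shRNA against CCAT1, a long non-coding RNA. The shRNAs were cloned in a lentiviral vector, and the time between infection and harvest is not given in the sources used here. There was 1 library per condition and line, 7 in all, which leaves a pair of libraries of 1 line without replicates, and the lines stand in for replicates where they are combined.

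p53 is a transcription factor that binds as a tetramer to a response element made of a pair of half-sites, and turns on genes that stop the cell cycle, repair DNA or start apoptosis. TP63 encodes p63, a relative of p53 whose DNA-binding domain recognizes nearly the same element. Squamous epithelium makes mainly ΔNp63, a form without the full activation domain of p53, which is known both to activate genes and to compete with p53 at shared elements. SOX2 is a second transcription factor of squamous cancers and is not a member of this family.

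The sequences below are the closest computed matches to the response element for some of the 34 genes. A half-site is 3 purines, a C, 2 bases that are A or T, a G and 3 pyrimidines. A site was taken as 2 half-sites with 0 or 1 base between them and at most 3 mismatches in 20 bases, within 2000 bases of the start of the annotated transcript with most counts (hg19 reference genome). Capitals mark bases that match the consensus, lower case marks mismatches and the base between half-sites, and each is written 5′ to 3′ on the strand of its gene. The first 6 belong to genes that were higher upon TP63 silencing in both lines, 5 of them past a log2 fold change of 0.58.
MDM2: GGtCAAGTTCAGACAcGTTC
PMAIP1: GGGCTTGTTTAccCAAGTCT
GDF15: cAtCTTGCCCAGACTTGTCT
FAS: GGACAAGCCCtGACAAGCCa
BBC3: GGGtcTGCCCAGGCATGTCC
SESN2: GGcCTAGCCCAGtgAAGTCC
The next 5 are the 4 closest matches among the 34 genes and the site of BTG2, a gene with higher values upon SOX2 silencing.
DDB2: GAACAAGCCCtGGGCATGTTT
ZMAT3: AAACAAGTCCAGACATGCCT
CCNG1: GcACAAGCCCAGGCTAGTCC
GADD45A: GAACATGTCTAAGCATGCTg
BTG2: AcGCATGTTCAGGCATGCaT
The site of MDM2 lies in an intron at chr12:69202703-69202722, 70 bases before the transcript start (distances are from the middle of the site). That of PMAIP1 lies upstream at chr18:57566781-57566800 and that of GDF15 in an intron at chr19:18496118-18496137. The FAS site, at chr10:90751066-90751085, and the BBC3 site, at chr19:47735825-47735844, overlap annotated exons. The SESN2 site lies upstream at chr1:28585711-28585730. DDB2 has its site in an exon at chr11:47236530-47236550, 15 bases after the start, and ZMAT3 in an intron at chr3:178787976-178787995. CCNG1 has it in an intron at chr5:162864932-162864951, GADD45A in an intron at chr1:68152458-68152477 and BTG2 upstream at chr1:203272770-203272789.

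A site with at most 3 mismatches was found for 33 of the 34 genes, PHLDA3 being the exception, but 80.2% of 23473 genes searched in the same way hold one. With at most 2 mismatches, 19 of the 34 genes (55.9%) and 18.1% of all genes hold a site. With at most 1 mismatch it was 4 of the 34 genes (11.8%) and 1.64% of all genes. A full match was found only in DDB2 and ZMAT3 among the 34, and in 0.102% of all genes. SESN2 and PLK2, which were among the genes with higher values upon TP63 silencing, hold no site with fewer than 3 mismatches in this window. The sites of PLK2 are not shown.

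The libraries held between 68532611 and 98036494 estimated counts. TP63 itself was lower by 1.95 on the log2 scale in TE5 shTP63 and by 1.93 in KYSE140 shTP63 than in the scramble library of the same line. SOX2 was lower by 1.34 in TE5 shSOX2 but only by 0.38 in KYSE140 shSOX2. CCAT1 itself was not analysed here. All 7 markers of squamous epithelium (such as KRT5 and DSG3) reached 1 TPM (an abundance scaled for transcript length) in at least 1 library. Their summed TPM ran from 998.6 to 30108 per library. It was 0.2 to 1.72 for 4 leukocyte markers, 13.4 to 44.7 for 5 fibroblast markers, 0.69 to 9.28 for 2 endothelial and 0.02 to 12.4 for 5 columnar markers. The lines differed: KRT14 was at 0.20 to 0.55 TPM in the TE5 libraries and at 303.5 to 1689 TPM in those of KYSE140. CDX2, a columnar marker, was at 5.7 to 12.1 TPM in TE5 and at 0 in KYSE140. The defining markers under 1 TPM in every library were 3 of the 4 leukocyte, 3 of the 5 fibroblast, 1 of the 2 endothelial and 4 of the 5 columnar markers. The TE5 scramble library was sequenced on another flow cell than all other libraries, and the KYSE140 scramble library in another lane than the knockdown libraries of its line. Flow cell and shRNA in TE5, and lane and shRNA in KYSE140, therefore cannot be told apart in any comparison with scramble. In bulk RNA, fewer cells that make a transcript and less of it per cell cannot be told apart.

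Upon TP63 silencing, the p53 targets split: 18 of 34 were higher in both lines, 7 were lower in both and 9 differed in direction between the lines. The counts with other scalings ran from 18 to 21 higher and from 5 to 8 lower in both lines. GDF15, PMAIP1, BBC3, SESN2, FAS, MDM2 and PLK2 had the largest values in TE5. All log2 fold changes for a pair of libraries are log2((knockdown + 1)/(scramble + 1)) of TMM-normalized counts, and the brackets give 95% intervals for counting error only. Of all 20415 genes measured in both lines, 34.7% were higher in both and 30.0% lower in both. Past 0.58 on the log2 scale (a fold of about 1.5) in both lines, 6 of 34 were higher, where 6.65% of all genes were, and 0 were lower, where 3.38% of all genes were. Among genes with at least 100 counts in a library of each pair, it was 5 of 31 beside 2.57%.

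**Figure D1:**
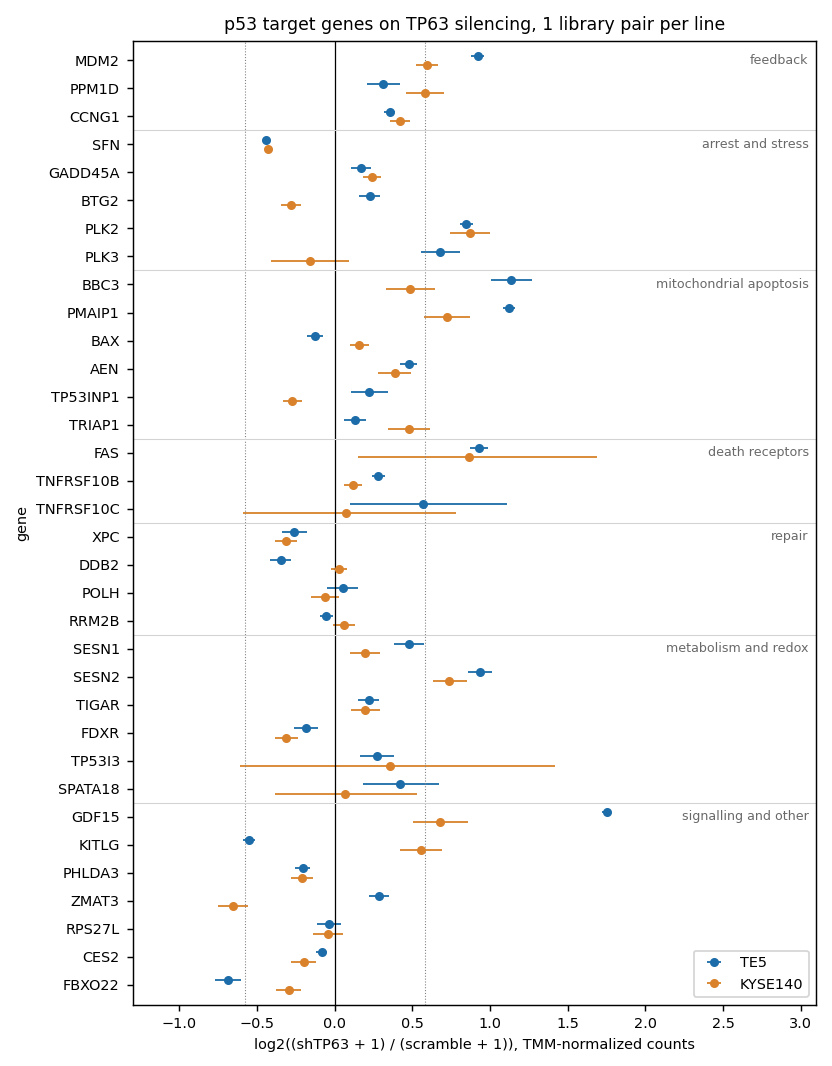
Log2 fold change of each of the 34 p53 target genes in shTP63 against scramble libraries, 1 pair per line (points, TE5 blue and KYSE140 orange), with 95% counting intervals as bars, ordered by role; dotted lines mark -0.58 and 0.58. GDF15 in TE5 sits highest at 1.75, and MDM2, PLK2, PMAIP1, FAS, SESN2 and GDF15 lie past 0.58 in both lines.

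The feedback genes were all higher in both lines. MDM2, the ubiquitin ligase that degrades p53, had TMM-normalized counts of 6929.5 in TE5 scramble, 13118 in TE5 shTP63, 7609 in TE5 shSOX2 and 7481 in TE5 shCCAT1. In KYSE140 it had 3411 in scramble, 5144 in shTP63 and 3022 in shSOX2. The shTP63 library was thus the highest of its line in both lines, and the other libraries of a line lay close together. This gave a log2 fold change of 0.92 [0.88, 0.96] in TE5 and 0.59 [0.52, 0.66] in KYSE140. PPM1D, a phosphatase that switches off the p53 response, differed by 0.31 and 0.58, and CCNG1, which encodes a cyclin, by 0.35 and 0.42. Most counts of MDM2 came from 1 transcript that was assigned by its identifier, and 17.7% of the 31-base words of its transcripts also occur in other genes. With annotated transcripts only, which leaves that transcript out, MDM2 stood at 0.88 and 0.73 upon TP63 silencing and at -0.58 rather than -0.17 in KYSE140 shSOX2.

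Of the 5 genes of arrest and stress, PLK2 and GADD45A were higher and SFN lower in both lines, and BTG2 and PLK3 differed in direction. PLK2, a stress-induced polo-like kinase, had 6774 counts in TE5 scramble, 12188 in shTP63, 10156 in shSOX2 and 7182 in shCCAT1, and in KYSE140 it had 954 in scramble, 1742 in shTP63 and 1320.5 in shSOX2. Both knockdowns lay above scramble in both lines and shTP63 was the highest, with log2 fold changes of 0.85 [0.81, 0.89] and 0.87 [0.74, 1.00]. SFN, which encodes 14-3-3σ, an epithelial arrest protein, was the most abundant of the 34 genes (median 670.5 TPM) and differed by -0.44 in TE5 and -0.43 in KYSE140. GADD45A, an arrest and repair protein, differed by 0.17 and 0.24. PLK3, a second stress kinase, differed by 0.68 in TE5 and by -0.16 [-0.41, 0.09] in KYSE140.

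Among the 6 genes of the mitochondrial route to apoptosis, the BH3-only genes had the largest values. PMAIP1, which encodes the BH3-only protein NOXA, had 7747 counts in TE5 scramble, 16885 in shTP63, 10003 in shSOX2 and 7916 in shCCAT1. In KYSE140 it had 738 in scramble, 1215.5 in shTP63 and 997.5 in shSOX2, and its log2 fold changes upon TP63 silencing were 1.12 [1.09, 1.16] and 0.72 [0.57, 0.87]. The order scramble, shSOX2, shTP63 was the same in both lines, with shCCAT1 next to scramble. BBC3, which encodes the BH3-only protein PUMA, had 662 counts in TE5 scramble, 1458 in shTP63, 730.5 in shSOX2 and 589 in shCCAT1, and 684, 957.5 and 923 in KYSE140 scramble, shTP63 and shSOX2. In TE5 the shTP63 library stood alone (log2 fold change 1.14 [1.01, 1.27]), while in KYSE140 shTP63 (0.49 [0.33, 0.64]) and shSOX2 were close to each other. AEN, a nuclease of apoptotic cells, differed by 0.48 and 0.39, and TRIAP1, a survival gene, by 0.13 and 0.48. BAX, the pore-forming effector, differed by -0.12 and 0.16, and TP53INP1, a stress protein, by 0.22 and -0.27.

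The 3 death receptor genes had values above 0 in both lines. FAS, the receptor of FAS ligand, had 3613.5 counts in TE5 scramble, 6874 in shTP63, 6089 in shSOX2 and 4883 in shCCAT1, and all 3 knockdown libraries lay above scramble. In KYSE140 it was barely measured, with 29.1, 53.9 and 45.8 counts in scramble, shTP63 and shSOX2. The log2 fold changes upon TP63 silencing were 0.93 [0.87, 0.99] and 0.86 [0.15, 1.69], the latter with a wide interval, and 22.7% of the words of FAS occur in other genes. TNFRSF10B, which encodes the TRAIL receptor DR5, differed by 0.28 and 0.12, and TNFRSF10C, a TRAIL decoy receptor of low count, by 0.57 and 0.07.

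Of the 4 repair genes, none was past 0.58 in either direction in either line. XPC, the damage sensor of nucleotide excision repair, differed by -0.26 in TE5 and -0.32 in KYSE140, and DDB2, which helps XPC find lesions, by -0.35 and 0.03. POLH, a polymerase that copies past ultraviolet damage, and RRM2B, a ribonucleotide reductase subunit, had values between -0.06 and 0.06. The median of the 4 was -0.16 in TE5, the lowest of the roles, and -0.02 in KYSE140, where the medians of the arrest and stress genes and of the signalling and other genes were lower.

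Of the 6 genes of metabolism and redox, 5 had values above 0 in both lines, led by SESN2. SESN2, a stress-induced inhibitor of mTORC1, had 2119 counts in TE5 scramble, 4053 in shTP63, 3163 in shSOX2 and 1755 in shCCAT1, and 1303, 2177 and 1971.5 in KYSE140 scramble, shTP63 and shSOX2. Both knockdowns of transcription factors lay above scramble in both lines, with log2 fold changes upon TP63 silencing of 0.94 [0.86, 1.01] and 0.74 [0.63, 0.85]. Its paralog SESN1 differed by 0.48 and 0.19. TIGAR, a brake on glycolysis, differed by 0.22 and 0.20, and FDXR, a mitochondrial reductase, by -0.19 and -0.31. TP53I3, a quinone oxidoreductase, differed by 0.27 and 0.36 and SPATA18, a mitochondrial quality gene, by 0.42 and 0.07, but the KYSE140 intervals of both include 0. Both KYSE140 values changed sign under an alternative: SPATA18 stood at -0.77 by TPM and TP53I3 at -0.06 with annotated transcripts only.

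Of the 7 remaining genes, GDF15 was higher in both lines, PHLDA3, RPS27L, CES2 and FBXO22 had values below 0 in both, and KITLG and ZMAT3 differed in direction. GDF15, a secreted stress cytokine, had 10396.5 counts in TE5 scramble, 34963 in shTP63, 20892.5 in shSOX2 and 12372.5 in shCCAT1. In KYSE140 it had 537 in scramble, 859.7 in shTP63 and 453 in shSOX2, so the shTP63 library was again the highest of its line. The log2 fold changes were 1.75 [1.72, 1.78] and 0.68 [0.51, 0.86]. FBXO22, a ubiquitin ligase subunit, had the lowest value in TE5, -0.69 [-0.77, -0.60], and -0.30 in KYSE140. KITLG, the ligand of KIT, differed by -0.55 in TE5 and 0.55 in KYSE140.

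**Figure D2:**
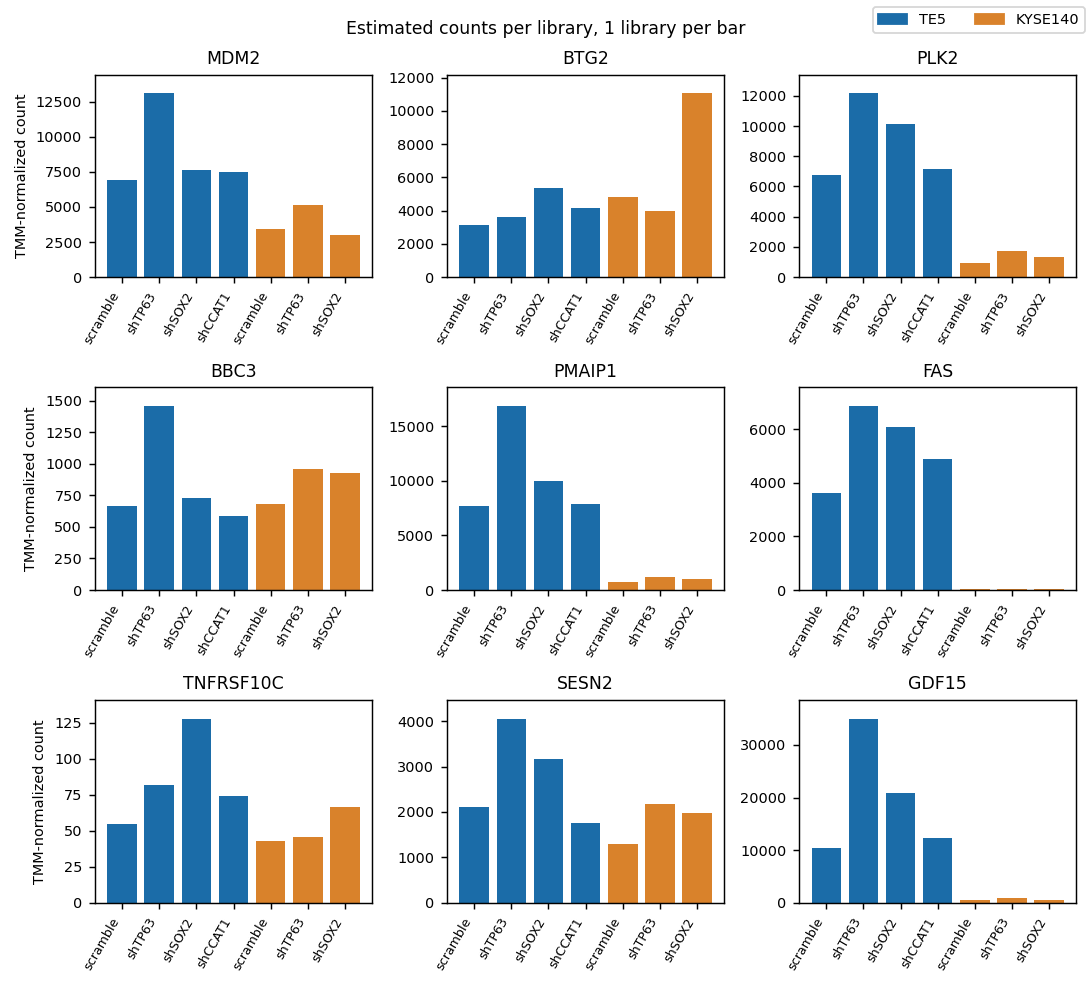
TMM-normalized counts (vertical axis, from 0) in each of the 7 libraries for the 9 genes given with all their values, TE5 in blue and KYSE140 in orange, 1 library per bar and so no error bars. The shTP63 bar is the highest of its line for MDM2, PLK2, PMAIP1, BBC3, FAS, SESN2 and GDF15, and the shSOX2 bar for BTG2 and TNFRSF10C; the 29.1 to 53.9 counts of FAS in KYSE140 are too low to see.

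The lines were then combined in edgeR's quasi-likelihood test over 26259 features, which all 34 genes entered. At an adjusted p under 0.1 the test called 0 of the 34 genes for TP63 silencing against scramble, and 0.0% of all features in either direction. TP63 itself, at an adjusted p of 0.123, was not called. At an unadjusted p under 0.05, 10 of the 34 genes were higher (5.36% of all features) and 1 was lower (7.76% of all features). The 10 were MDM2, PPM1D, CCNG1, PLK2, PMAIP1, BBC3, AEN, FAS, SESN2 and GDF15, and the other was FBXO22. The lowest adjusted p was that of PLK2 (log2 fold change 0.86, SE 0.13, adjusted p = 0.149), followed by FAS (0.93, SE 0.16, adjusted p = 0.159), PMAIP1 (0.94, SE 0.17, adjusted p = 0.16) and SESN2 (0.84, SE 0.15, adjusted p = 0.16). MDM2 gave 0.76 (SE 0.15, adjusted p = 0.176) and GDF15 1.21 (SE 0.32, adjusted p = 0.233), both higher in 2 of 2 lines. DESeq2 on the same counts called 8 of 33 genes higher (3.57% of all features) and FBXO22 lower (9.46% of all features), its 8 being the 10 above without PPM1D and AEN. The count of called genes depends on single libraries: edgeR called 7 of the 34 without KYSE140 shTP63, 6 without KYSE140 shSOX2, 2 without TE5 shSOX2 and 0 without each of the other libraries. The median of the 34 fitted log2 fold changes was 0.21, beside 0.04 over all features.

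Within a line, 3 of the 34 genes (GDF15, BBC3 and PMAIP1) were higher past 1 in TE5 shTP63, where 14.8% of all genes with at least 10 counts were, and 6.04% of those with at least 100 counts. None was lower past -1 (5.41% of all genes). In KYSE140 shTP63, 0 of the 34 were higher past 1 (8.8% of all genes) and 0 lower (4.15%). The median log2 fold change of the 34 genes was 0.25 in TE5, where it was 0.07 over all genes, and 0.14 in KYSE140, where it was 0.05. Scaling by library totals moved the median of all genes in TE5 shTP63 to 0.20 and that of the 34 to 0.39, which left the distance between them at 0.18.

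**Figure D3:**
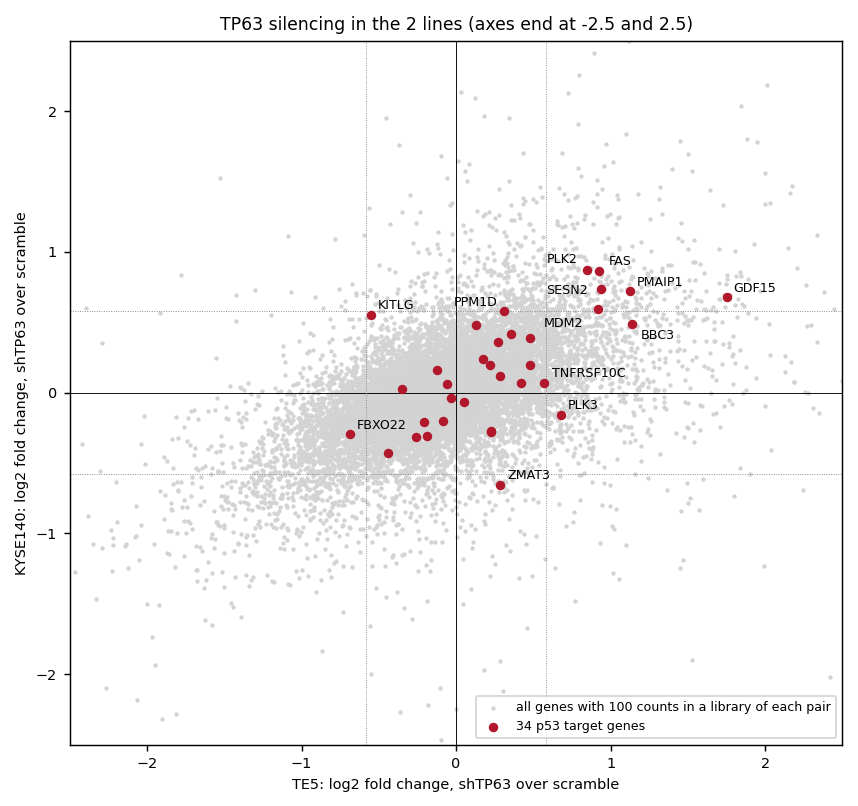
Log2 fold change of shTP63 over scramble in TE5 (horizontal) against KYSE140 (vertical), 1 point per gene: grey for all genes with 100 counts in a library of each pair, red for the 34 p53 target genes, with dotted lines at -0.58 and 0.58. The 6 red points past 0.58 in both lines are MDM2, PLK2, PMAIP1, FAS, SESN2 and GDF15 (FAS with under 100 counts in KYSE140), and no red point lies below -0.58 in both.

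Upon SOX2 silencing, 16 of the 34 genes were higher in both lines, 9 were lower in both and 9 differed in direction, and BTG2, FAS and TNFRSF10C were past 0.58 in both lines. The shares of all genes higher or lower in both lines are not given for SOX2 silencing. The split into 16, 9 and 9 is therefore not read as a result about these genes. In single lines, 18 of the 34 were above 0 in TE5 (49.3% of all genes) and 23 in KYSE140 (55.0%). PLK2 stood at 0.58 in TE5 and 0.47 in KYSE140, but at -0.07 in KYSE140 by TPM. BTG2, an antiproliferative gene, had 3106.5 counts in TE5 scramble, 3632.5 in shTP63, 5339.9 in shSOX2 and 4167 in shCCAT1. In KYSE140 it had 4840.5 in scramble, 3982 in shTP63 and 11074 in shSOX2, the highest value of all libraries. Its log2 fold changes upon SOX2 silencing were 0.78 [0.72, 0.85] and 1.19 [1.14, 1.25]. TNFRSF10C had 54.6, 81.6, 128 and 74.5 counts in TE5 scramble, shTP63, shSOX2 and shCCAT1 and 43.3, 45.5 and 66.6 in KYSE140 scramble, shTP63 and shSOX2. Its shSOX2 libraries were the highest of each line, with log2 fold changes of 1.21 [0.76, 1.75] and 0.61 [-0.03, 1.32], and 31.3% of its words occur in other genes. TNFRSF10B differed by 0.70 and 0.55, FAS by 0.75 and 0.64 (in KYSE140 with an interval of -0.16 to 1.50) and SESN1 by 0.56 and 0.75. GADD45A differed by -0.28 in TE5 and -0.97 in KYSE140, and RRM2B by -0.23 and -0.88.

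Past 0.58 in both lines upon SOX2 silencing, 3 of the 34 genes (BTG2, FAS and TNFRSF10C) were higher (3.12% of all genes) and 0 lower (3.28%). Past 1 in a single line, it was GDF15 and TNFRSF10C in TE5 (6.15% of all genes higher) and BTG2 in KYSE140 (6.8%), and 0 genes were lower past -1 in either (4.8% and 6.17%). edgeR called 0 of the 34 genes, where 0 features were called higher and 0.0533% lower. At an unadjusted p under 0.05, 7 were higher (3.66% of all features) and GADD45A and RRM2B lower (4.91%). DESeq2 called 7 higher (1.67% of all features) and 0 lower (3.19%): CCNG1, BTG2, PLK2, FAS, TNFRSF10B, SESN1 and SESN2. The lowest adjusted p of edgeR was that of TNFRSF10B (0.60, SE 0.13, adjusted p = 0.363), and BTG2 gave 0.98 (SE 0.23, adjusted p = 0.376). The call of edgeR for BTG2 passed the threshold when either shTP63 library was left out (adjusted p = 0.0416 without KYSE140 shTP63 and 0.0289 without TE5 shTP63). SOX2 mRNA in KYSE140 shSOX2 stood at -0.38 on the log2 scale, and the part of this weak silencing in these values was not tested.

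**Figure D4:**
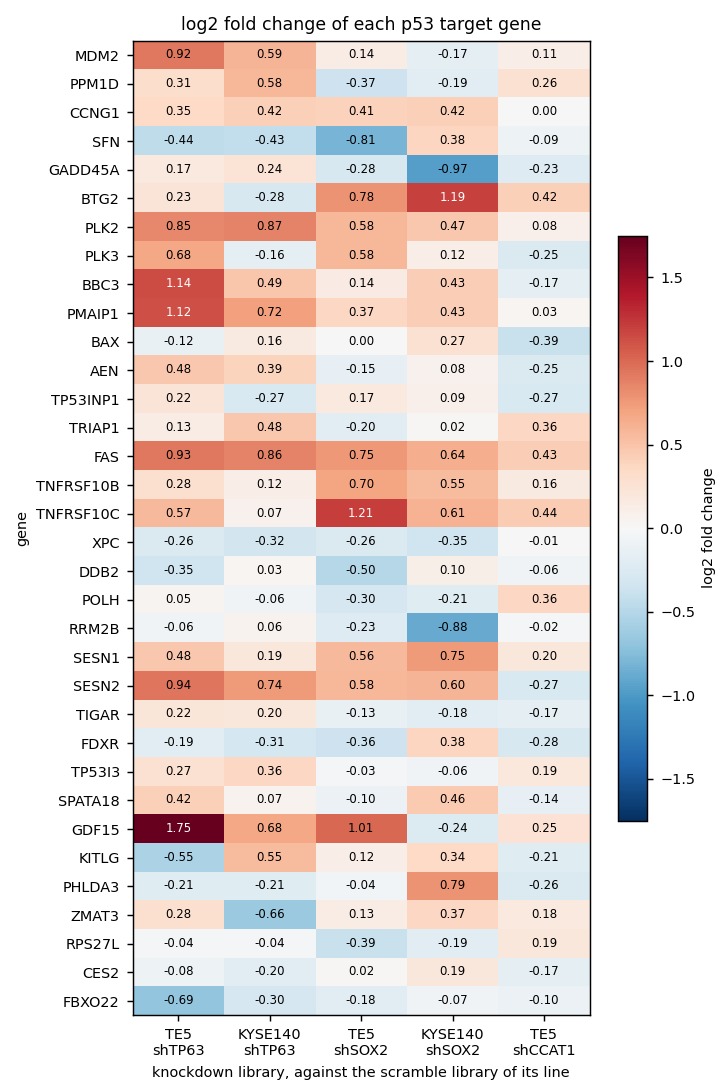
Log2 fold change of the 34 p53 target genes (rows, by role) in the 5 knockdown libraries against the scramble library of their line (columns), red for higher and blue for lower, each value printed. FAS is red in all 5 columns (0.43 to 0.93), with low counts in KYSE140. CCNG1, PLK2, PMAIP1, TNFRSF10B, TNFRSF10C and SESN1 are also above 0 in all 5, and the shCCAT1 column holds no value past 0.45.

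The shTP63 and shSOX2 libraries of a line shared a lane, so their direct comparison does not cross lanes. MDM2 was higher in shTP63 than in shSOX2, by 0.79 in TE5 and 0.77 in KYSE140. It was the only one of the 34 genes that edgeR called in this comparison (log2 fold change 0.80, SE 0.15, adjusted p = 0.0919), where 0.876% of features were called higher and 1.34% lower. The call was lost without any of 5 of the 6 libraries (adjusted p from 0.131 to 0.253), KYSE140 shTP63 being the exception, and with annotated transcripts only (1.06, adjusted p = 0.252). Without the cell line as block the adjusted p was 1. Past 0.58 in both lines, MDM2, PPM1D and GDF15 were higher (7.62% of all genes) and 0 of the 34 lower (4.57%). PPM1D stood at 0.68 and 0.77, GADD45A at 0.45 and 1.21 and GDF15 at 0.74 and 0.92. BTG2 stood on the other side, at -0.56 in TE5 and -1.48 in KYSE140, and so did TNFRSF10B, at -0.42 and -0.43. At an unadjusted p under 0.05, edgeR gave 10 genes higher (7.57% of all features) and 3 lower (8.42%). DESeq2 called MDM2, PPM1D, GADD45A, PMAIP1, AEN and GDF15 higher (6.21% of all features) and BTG2 and TNFRSF10B lower (10.1%). This comparison uses the same knockdown libraries as the comparisons with scramble.

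Upon CCAT1 silencing in TE5, the 34 genes had smaller values. They lay between -0.39 (BAX) and 0.44 (TNFRSF10C), and 0 were past 0.58 in either direction, where 19.7% of all genes were higher and 12.1% lower past that fold, or 7.25% and 7.6% of those with at least 100 counts. The direction of many of these values depends on the scaling. With TMM, 16 of the 34 were above 0 (51.3% of all genes), against 25 with library totals (66.6%) and 22 with TPM (61.2%). Higher past 0.58 were then 3 with library totals (25.6% of all genes) and 1 with TPM (21.9%). FAS stood at 0.43 [0.37, 0.50] and BTG2 at 0.42 [0.35, 0.49], and MDM2, PMAIP1 and PLK2 at 0.11, 0.03 and 0.08. Against the shCCAT1 library, which shared the lane of TE5 shTP63, the shTP63 library was higher by 0.81 for MDM2, 1.09 for PMAIP1, 1.31 for BBC3, 1.21 for SESN2 and 1.50 for GDF15. TE5 shTP63 therefore stood above scramble, shSOX2 and shCCAT1 libraries for these 5 genes. They were among the genes with the largest values against scramble, and the same shTP63 library is in each comparison. The comparison with shCCAT1 is therefore not separate support. Over all 34 genes, the median log2 fold change of shTP63 over shCCAT1 was 0.12, beside 0.005 over all genes.

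The levels of many of the genes differed between the lines. All 4 TE5 libraries lay above all 3 KYSE140 libraries for 16 of the 34 genes, and below them for 6, where it was 32.4% and 33.2% of 17095 genes with at least 100 counts in a library. In the scramble libraries, FAS was 124-fold higher in TE5 by normalized count, TP53I3 61.0-fold, GDF15 19.4-fold, KITLG 11.9-fold, PMAIP1 10.5-fold and PLK2 7.1-fold. TP53INP1 was the other way, at 0.187 times its KYSE140 value. By TPM, SFN, GDF15 and BAX had the highest medians over the 7 libraries (670.5, 185.7 and 131.9) and TNFRSF10C the lowest (0.606). With 1 scramble library per line, no test was made of these differences.

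**Figure D5:**
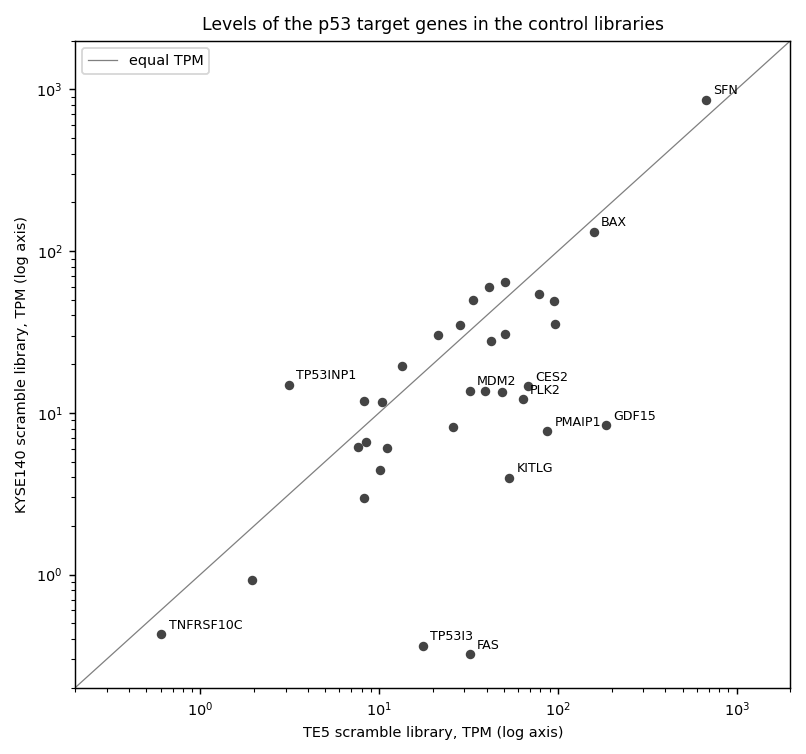
TPM of the 34 p53 target genes in the TE5 (horizontal) and KYSE140 (vertical) scramble libraries, both axes logarithmic, 1 point per gene, with a grey line where both are equal. FAS and TP53I3 lie farthest below the line (124-fold and 61.0-fold by normalized count), and TP53INP1 lies above it.

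The values were also set beside the response elements. The 19 genes with a site of at most 2 mismatches had a median log2 fold change of 0.28 in TE5 shTP63 and 0.16 in KYSE140 shTP63, and the other 15 had 0.13 and 0.07. Upon SOX2 silencing the same groups had 0.13 and -0.04 in TE5 and 0.27 and 0.19 in KYSE140, so the gap was not seen with TP63 silencing alone. Of the 19 genes with such a site and the 15 others, 6 (31.6%) and 2 (13.3%) were higher past 0.58 in TE5 shTP63. In KYSE140 shTP63 it was 4 (21.1%) and 2 (13.3%), and in TE5 shSOX2 5 (26.3%) and 2 (13.3%). KYSE140 shSOX2 had the reverse order, 2 (10.5%) and 4 (26.7%). Over all genes with at least 100 counts, the 2733 with such a site in TE5 had a median of -0.05 and the 12996 others -0.05. In KYSE140, the medians were 0.01 for 2498 genes with a site and 0.01 for 11978 others. Higher past 0.58 in TE5 shTP63 were 15.0% of all genes with a site and 13.8% of the others, and in KYSE140 shTP63 6.93% and 6.26%. Upon SOX2 silencing it was 6.21% and 5.11% in TE5, and 8.87% and 7.18% in KYSE140. The 4 genes with at most 1 mismatch, DDB2, ZMAT3, CCNG1 and GADD45A, spanned -0.35 to 0.35 in TE5 shTP63 and, in KYSE140 shTP63, -0.66 to 0.42, and 0 of the 4 were past 0.58 upward in either line. These are descriptions of a sequence match, not of binding.

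A further list of p53 targets, of which 49 of 50 were measured, gave medians of 0.17 in TE5 shTP63 and -0.05 in KYSE140 shTP63. edgeR called 0 of the 49 upon TP63 silencing, and 0.0% of all features in either direction. At an unadjusted p under 0.05 it gave 6 higher (5.36% of all features) and 7 lower (7.76%). DESeq2 called 2 of 48 higher (3.57% of all features) and 4 lower (9.46%). In shTP63 against shSOX2 libraries edgeR called KRT8, a simple-epithelium keratin, higher (0.78, SE 0.15, adjusted p = 0.1, just under the threshold) and GPC1, a glypican, lower (-0.71, SE 0.14, adjusted p = 0.0968). Of all features, 0.876% were called higher and 1.34% lower there. CDKN1A, which encodes the arrest protein p21 and was chosen after its values were seen, had 20614 counts in TE5 scramble and 41389 in shTP63, a log2 fold change of 1.01. In KYSE140 it had 17866 and 17931, a log2 fold change of 0.01. Its fitted value over both lines did not pass the test (adjusted p = 0.491). Of 19 regulators of p53, edgeR called TP63 alone, in shTP63 against shSOX2 (-2.19, SE 0.13, adjusted p = 0.0404), where 1.34% of all features were called lower.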

How the data were processed

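RNA-Seq libraries of 7 samples were analysed as estimated counts and TPM values deposited by the authors, who ran kallisto on paired 100-base reads against Ensembl 82 transcripts (hg19); the values are per transcript and not scaled between libraries. Estimated counts were summed to genes with GENCODE 44 (hg19), rounded for edgeR 4.0.16 and DESeq2 1.42.0 (R 4.3.3), and normalized with TMM. Transcripts absent from that annotation took the gene of both neighbours in the files (7011 transcripts; right for 99.69% of 96494 annotated ones), 1 MDM2 transcript was assigned by its identifier, and 6479 (2.66 to 2.73% of counts) stayed single features. The fit used scramble, shTP63 and shSOX2 libraries of both lines (6 libraries, cell line as block, 2 residual degrees of freedom, filterByExpr, Benjamini-Hochberg adjusted p under 0.1). It treats cell lines as replicates, and nothing says that libraries are separate cultures. Pairs were compared over genes with at least 10 counts in 1 library, a pseudocount of 1 and no test. The fit was also run on simulated counts with 200 genes changed and no difference between the lines. That run does not show how readily the 34 genes could be called. The genes and lists were chosen with earlier results of these data known. Values in every library are given for genes past 0.58 in both lines on TP63 or SOX2 silencing, or past 1 in any library, with at least 100 counts in 1. Beyond the 34 genes and the checks, genes called in a combined fit are named. Alternatives of scaling, filter, pseudocount, test, control library and transcript set were computed.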

Additional observations from a re-analysis of the deposited data

Results flagged for a closer look

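The lines had opposite directions for 9 of the 34 genes upon TP63 silencing and for 9 upon SOX2 silencing, with 1 pair of libraries per line, and no difference between the lines was tested. Given here are the 6 whose counting intervals exclude 0 in both lines and whose lines differ by more than 0.58. Of all genes, 34.7% were higher in both lines upon TP63 silencing and 30.0% lower in both, beside 18 and 7 of the 34. Shares of all genes are not given for SOX2 silencing or for the rule behind the 6. The counts of 9 and of 6 are therefore not read as a result about these genes. Upon TP63 silencing, KITLG stood at -0.55 in TE5 and 0.55 in KYSE140 (TE5 minus KYSE140 -1.10), and ZMAT3 stood at 0.28 and -0.66 (0.94). Upon SOX2 silencing, SFN stood at -0.81 and 0.38 (-1.19), DDB2 at -0.50 and 0.10 (-0.60), FDXR at -0.36 and 0.38 (-0.745) and GDF15 at 1.01 and -0.24 (1.25). SOX2 mRNA was lower by 1.34 in TE5 shSOX2 and by 0.38 in KYSE140 shSOX2, and its part in these 4 differences was not tested.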

How the results depend on the processing

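The 33 fitted values of the 34 genes at an unadjusted p under 0.05 (of 102 in 3 contrasts) kept their direction under every alternative run, while over all 102, 3 of those for TP63 silencing had another sign with DESeq2. Of the values of single genes in a pair, 46 changed sign under an alternative, 16 of them in TE5 shCCAT1. Their sizes in the main setting were all 0.469 or less, but some alternative values were larger. SPATA18 in KYSE140 shTP63 stood at 0.07 and, by TPM, at -0.77. Counts of calls moved as follows. For TP63 silencing the 0 features and 0 of the 34 genes called became 2027 and 9 with DESeq2, 669 and 6 with at least 1 count as filter, 289 and 4 with unassigned transcripts left out, 5 features with the shCCAT1 library added, and 0 to 1623 features and 0 to 7 genes with 1 library left out. For SOX2 silencing the 14 features and 0 genes became 756 and 7 with DESeq2, 184 and 1 with at least 1 count, 29 features with shCCAT1, 38 with unassigned transcripts left out, 1 with annotated transcripts only (an alternative chosen after seeing the data), and 0 to 466 features and 0 to 1 genes with 1 library left out. For TP63 against SOX2 silencing the 581 features and 1 gene became 2796 and 8 with DESeq2, 1415 and 3 with at least 1 count, 1156 and 4 with unassigned transcripts left out, 1 and 0 with annotated transcripts only, 2 genes with library totals, and 0 to 1925 features and 0 to 3 genes with 1 library left out. Without the cell line as replicate block, the fit called 0 features and 0 genes in each of these comparisons. The spread it estimated over all features (common dispersion) was 0.788, against 0.0642 with the block. The cause was not tested.

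Counting both directions, 3 of the 34 genes were past 1 in TE5 shTP63, against 6 with library totals, 7 with TPM and 0 with shSOX2 as control. Past 0.58 there were 9. In TE5 shSOX2 it was 2, against 1 with DESeq2 size factors, and 8 past 0.58. In KYSE140 shTP63 it was 0, against 4 with shSOX2 as control, and 7 past 0.58. In KYSE140 shSOX2 it was 1, against 2 with library totals and 3 with TPM, and 8 past 0.58. Of all genes, 25.3% were higher and 14.0% lower past 0.58 in TE5 shTP63, and 13.1% and 11.8% in TE5 shSOX2. The shares were 16.4% and 9.89% in KYSE140 shTP63, and 14.0% and 12.9% in KYSE140 shSOX2. Shares of all genes past 1 under the alternatives are not given, so changes in the counts past 1 are not read as a result. In TE5 shTP63 the median of all genes moved too, from 0.067 to 0.203 with library totals and 0.202 with TPM. The genes higher past 0.58 in both lines numbered 6 upon TP63 silencing, or 5 with DESeq2 size factors (without MDM2) and 5 with TPM (without FAS), and 3 upon SOX2 silencing, or 1 with library totals and 2 with TPM. The median of the 34 was 0.249 in TE5 shTP63, against 0.387 with library totals, 0.381 with TPM and 0.177 with shSOX2 as control. In KYSE140 shTP63 it was 0.138, against 0.044 with shSOX2 as control, and in KYSE140 shSOX2 0.232, against 0.038 with TPM. In TE5 shCCAT1 it was -0.018, against 0.159 with library totals, 0.117 with TPM and -0.148 with shSOX2 as control. In TE5 shSOX2 it was 0.01, against -0.001 with DESeq2 size factors, so that these 2 medians have no stable sign. The median of all genes in TE5 shCCAT1 moved too, from 0.015 to 0.191 with library totals and 0.129 with TPM. Sites were found for 33 genes, or 19 with at most 2 mismatches. Depth limits FAS, TP53I3, SPATA18 and TNFRSF10C in KYSE140, whose counting intervals are wide.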
